A study of Mus musculus with 12 samples.

Results

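The genes described here are 10 markers used for alternatively activated and tissue-resident macrophages, Il4ra, Arg1, Retnla, Mrc1, Clec10a, Lyve1, Folr2, Msr1, Marco and Cd163, chosen by gene symbol. Of these, 9 are among the 18376 genes listed in the expression table, and Retnla is not listed. The markers, called members below, were chosen with earlier results of these data known. Counts of members beside shares of all genes are therefore no test of the set. RNA was sequenced in 12 libraries from cultures of BMDMs (bone marrow-derived macrophages), grown from bone marrow progenitor cells of male adult C57BL6/J mice with the WT genotype in 50 ng/ml M-CSF, the growth factor that drives macrophage formation. All 4 groups received M-CSF, and each group had 3 libraries after 6 days. CTRL received nothing else, Act received 50 ng/ml activin A, FST received 250 ng/ml FST288, and Act+FST received both. Activin A is a secreted member of the transforming growth factor beta family that signals through SMAD proteins, and FST288 is an isoform of follistatin that binds activin A and blocks it. The cells were made in culture, so that resident macrophages of a tissue were not measured, and nothing states whether the 3 libraries of a group came from separate cultures or mice. P-values therefore measure only the spread between these libraries.

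Macrophages exposed to interleukin-4 enter a state called alternative activation, in which the receptor chain IL4Ra and the transcription factor STAT6 raise arginase 1 (Arg1), the secreted protein RELMa (Retnla), and lectin receptors such as the mannose receptor (Mrc1, CD206) and the galactose-type lectin Clec10a (MGL1, CD301a). Resident macrophages of many tissues carry a partly shared set of uptake receptors, among them the hyaluronan receptor Lyve1, the folate receptor Folr2, and the hemoglobin-haptoglobin receptor Cd163. Msr1 and Marco are trimeric class A scavenger receptors that take up modified lipoproteins and bacteria.

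Values are the normalized counts that the authors deposited as whole numbers, with totals of 5643708 to 5955400 per library. Differences are log2 fold changes with standard errors (SE) from limma on log2(normalized count + 1), with Benjamini-Hochberg adjustment over the 14318 genes that had a mean of at least 5, and adjusted p-values below are all from that test. A gene passed at an adjusted p of at most 0.05, and it was called a differentially expressed gene (DEG) if it also differed at least 2-fold. The SMAD target Pmepa1, which checks the activin A label, had 756 to 871 normalized counts in Act and 5 to 50 in the other groups. Of 10 macrophage markers, 1 passed in Act versus CTRL (Cd14, 0.23 log2 higher), and their summed normalized counts lay between 14634 and 16147 in all libraries, with 15019 to 16038 in Act. Csf1r, the M-CSF receptor, had 3134 to 3578 normalized counts over the 12 libraries.

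The promoters of the members whose levels moved most, and for which a sequence was at hand, are shown first. They come from RefSeq (GRCm38.p6), run 5′ to 3′ in the direction of transcription, and hold 250 bases before and 50 bases after the annotated start. Capitals mark the SMAD binding element CAGAC or its reverse complement GTCTG. Cd163, Mrc1 and Folr2 fell in Act, and Marco rose.
Cd163 (chr6:124304401-124304700, plus strand): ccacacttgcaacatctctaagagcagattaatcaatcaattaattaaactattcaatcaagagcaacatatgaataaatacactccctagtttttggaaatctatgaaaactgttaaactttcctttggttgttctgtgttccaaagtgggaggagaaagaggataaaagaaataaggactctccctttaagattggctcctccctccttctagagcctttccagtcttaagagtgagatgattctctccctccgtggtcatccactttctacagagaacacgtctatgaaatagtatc
Mrc1 (chr2:14229164-14229463, plus strand): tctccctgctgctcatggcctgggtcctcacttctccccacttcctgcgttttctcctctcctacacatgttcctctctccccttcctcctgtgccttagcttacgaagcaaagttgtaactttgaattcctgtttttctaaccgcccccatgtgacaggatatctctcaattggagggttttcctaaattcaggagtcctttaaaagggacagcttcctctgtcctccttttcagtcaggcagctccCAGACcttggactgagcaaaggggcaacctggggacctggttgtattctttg
Folr2 (chr7:101845282-101845581, minus strand): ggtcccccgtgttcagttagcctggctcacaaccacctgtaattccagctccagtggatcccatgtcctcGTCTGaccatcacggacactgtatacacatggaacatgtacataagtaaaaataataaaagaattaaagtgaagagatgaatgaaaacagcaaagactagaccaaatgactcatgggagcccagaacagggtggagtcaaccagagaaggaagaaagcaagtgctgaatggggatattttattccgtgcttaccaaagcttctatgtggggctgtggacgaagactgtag
Marco (chr1:120504975-120505274, minus strand): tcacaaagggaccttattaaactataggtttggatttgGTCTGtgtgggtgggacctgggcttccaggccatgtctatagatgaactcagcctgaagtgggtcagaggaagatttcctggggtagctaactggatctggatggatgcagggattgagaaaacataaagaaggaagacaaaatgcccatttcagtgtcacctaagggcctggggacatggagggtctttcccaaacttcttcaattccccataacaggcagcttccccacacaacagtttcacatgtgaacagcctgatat
Folr2 has a second RefSeq start farther upstream, whose window is not printed, and with Il4ra a window was at hand for 5 of the 9 listed members. The SMAD binding element occurred once each in the windows of Mrc1, Folr2 (the one shown), Marco and Il4ra, and not in the Cd163 window or the other Folr2 window. In the RefSeq table, 49.6% of 32851 windows of the same length held this motif. The STAT6 site TTCNNNNGAA, present in 6.95% of all windows, was in none of the windows of listed members, whereas the window of Retnla held 1. The PU.1 core GAGGAA (28.3% of all windows) occurred 3 times in the Mrc1 window and once in that of Marco. The MAF site TGCTGA (19.5%) occurred once in each Folr2 window, and the CACCC box (57.5%) occurred in the windows of Il4ra, Folr2 and Marco. All motifs were searched on both strands, no matches overlapped each other in these windows, and the matches are a description of the letters only.

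In untreated BMDMs, Mrc1 and Clec10a had the highest levels of the members per exonic length, and Lyve1 the lowest. Per 1000 exonic bases, a scale that allows for gene length only, the CTRL mean was 509 normalized counts for Mrc1, 320 for Clec10a, 270 for Il4ra, 227 for Folr2, 175 for Msr1, 45.5 for Marco, 44.7 for Cd163, 5.24 for Arg1 and 1.37 for Lyve1. Marco and Cd163 did not differ in CTRL beyond their spread on this scale. The mean normalized count of Mrc1 over the 12 libraries ranked 24 among all listed genes, without scaling to length (Mrc1 has 6371 exonic bases). In Act the order was Mrc1 (359 per 1000 exonic bases), Il4ra (282), Clec10a (188), Msr1 (182), Marco (86.4), Folr2 (84.1) and Cd163 (15.9), so that Marco and Folr2 stood side by side while Cd163 lay well under both. No gene in the table exceeded 0.883 normalized counts per exonic base, and Mrc1 had 0.479. Whether high values are compressed toward such a bound was not tested, so distances between genes on this scale are approximate.

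**Figure D1:**
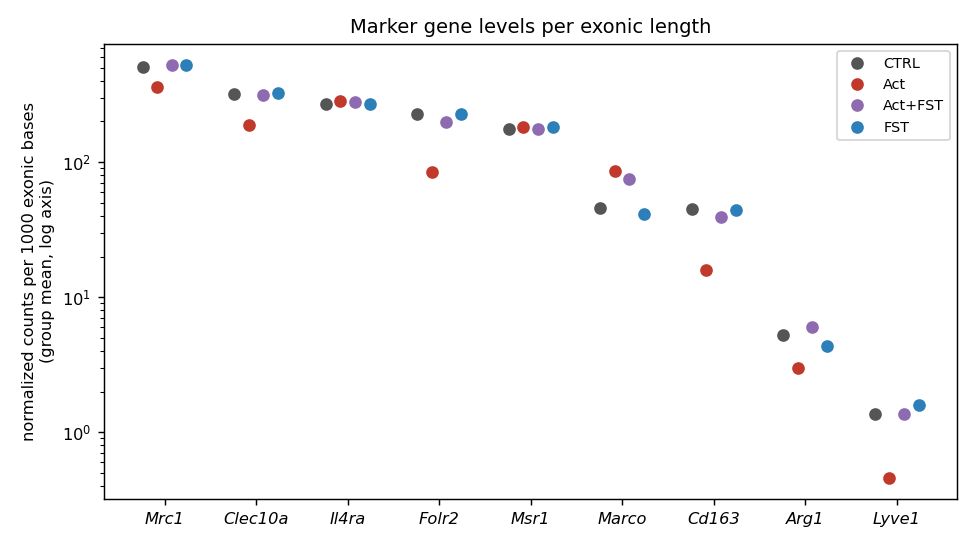
Group means of the 9 listed members in normalized counts per 1000 exonic bases (log axis), with 1 point per group of 3 libraries. Mrc1 had the highest level in every group (359 to 527), and Arg1 and Lyve1 lay at or under 5.98 in every group.

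With activin A, 4 of the 8 members that could be tested fell, 1 rose and 3 did not pass. Mrc1, Clec10a, Folr2 and Cd163 were lower in all 3 Act libraries than in any CTRL library, and Marco was higher in all 3. Among all genes tested, 20.2% passed in this comparison, 9.97% lower and 10.3% higher, and the groups did not overlap for 35.7%. These shares give scale only, because the members were chosen with earlier results known. At the 2-fold threshold, Folr2 and Cd163 were DEGs, against 5.66% of all genes (3.09% lower). Lyve1 was under the filter of 5 and was not tested. Lower RNA of a receptor in a bulk sample can come from fewer cells that express it or from less RNA per cell, which cannot be told apart here.

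**Figure D2:**
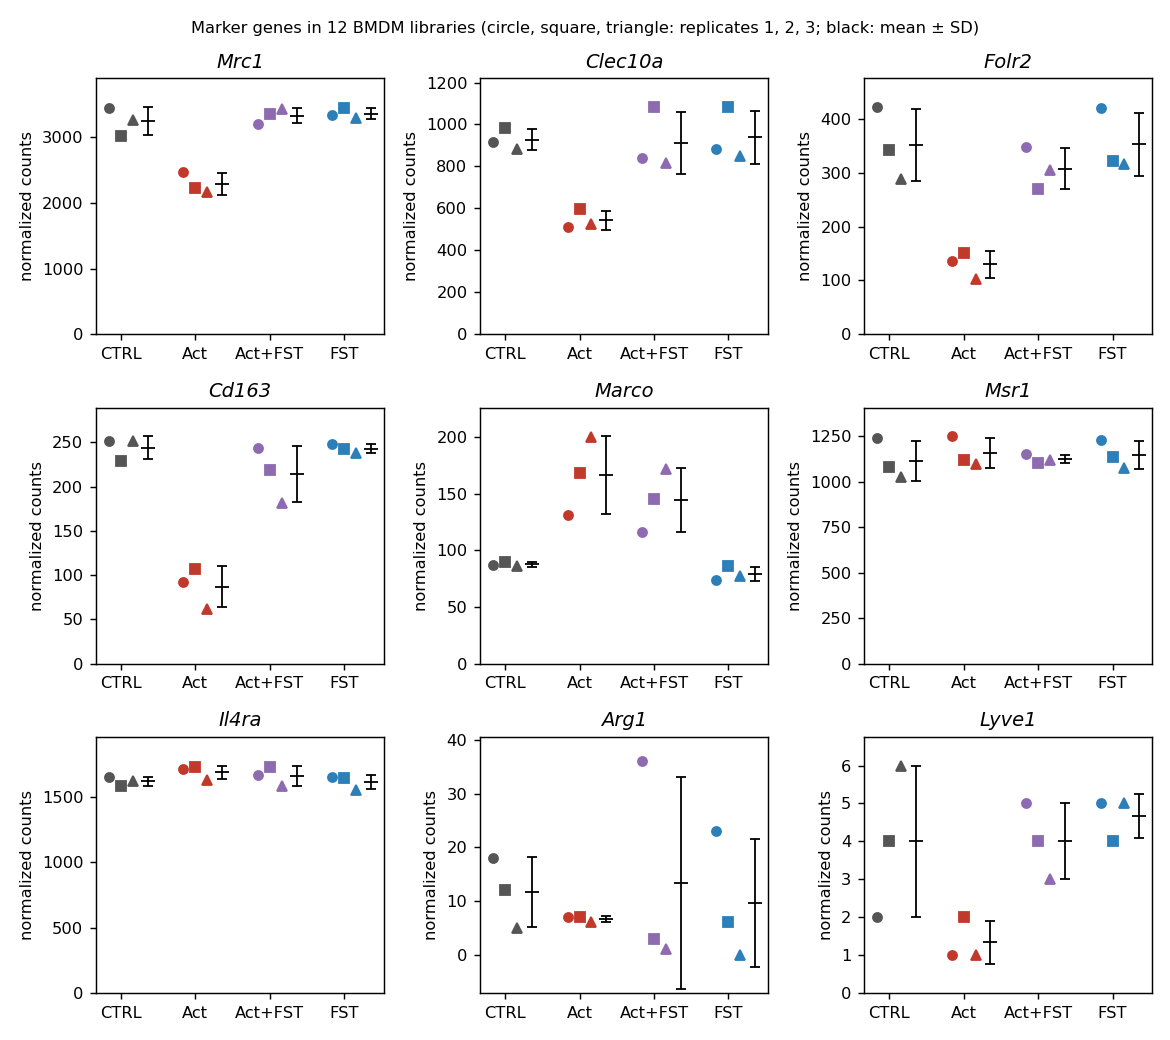
Normalized counts of the 9 listed members in each of the 12 libraries, with circles, squares and triangles for replicates 1, 2 and 3 and the mean and SD of each group in black. Act lies apart from the other 3 groups for Mrc1, Clec10a, Folr2 and Cd163, whereas for Marco both Act and Act+FST lie above CTRL and FST.

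Among the lectin and other endocytic receptors, Mrc1 encodes the mannose receptor, which takes up mannose-bearing glycoproteins and microbes (chr2:14229392-14332057, plus strand). The CTRL libraries had 3448, 3018 and 3265 normalized counts, against 2466, 2232 and 2158 in Act, 3196, 3352 and 3430 in Act+FST and 3332, 3447 and 3288 in FST. The Act libraries were the 3 lowest, and the other groups overlapped. Mrc1 fell by 0.51 on the log2 scale in Act versus CTRL (SE 0.06, adjusted p = 1.2e-04), from 3244 ± 216 to 2285 ± 161 (SD, n = 3), which is a loss of less than 2-fold. When values were read as numbers of distinct read start positions, a reading chosen after seeing the data, the difference was -0.68. Against Act+FST, Mrc1 was lower in Act by -0.54 log2 (SE 0.06, adjusted p = 6.6e-05).

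Clec10a encodes a calcium-dependent lectin that binds terminal galactose and N-acetylgalactosamine (chr11:70156197-70170834, plus strand). Replicates 1 to 3 had 918, 982 and 884 normalized counts without treatment (CTRL) and 511, 596 and 526 with activin A. With both proteins they had 840, 1084 and 816, and with FST288 alone 881, 1083 and 850. The highest Act library had 596 and the lowest of the others 816, and replicate 2 was the highest library of each group. The fall in Act versus CTRL was -0.77 log2 (SE 0.11, adjusted p = 3.9e-04), and that against Act+FST was -0.74 (SE 0.11, adjusted p = 5.4e-04). Mgl2, the neighboring family member that encodes the related lectin CD301b, fell by 0.52 on the log2 scale in Act versus CTRL (adjusted p = 0.044), and its difference from Act+FST was -0.49 (adjusted p = 0.052, or 3.6e-05 with the replicate number as a block).

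Folr2 encodes the beta form of the folate receptor, a surface protein of many resident macrophages (chr7:101839988-101857194, minus strand). In CTRL the 3 libraries stood at 423, 343 and 289 normalized counts. Those of Act stood at 137, 151 and 102, those of Act+FST at 348, 271 and 305, and those of FST at 421, 322 and 316. The highest Act library had 151 and the lowest of the other libraries had 271. Folr2 fell by 1.43 on the log2 scale in Act versus CTRL (SE 0.17, adjusted p = 8.8e-05), from 352 ± 67.4 to 130 ± 25.2 (SD, n = 3), and by 1.25 against Act+FST (SE 0.17, adjusted p = 2.4e-04). On the opposite strand, Gm10602 overlaps 63.1% of the exonic bases of Folr2, and the strand setting of the counting is not stated. Gm10602 itself had 143 ± 25 normalized counts in CTRL and 148 ± 25.9 in Act, a difference of 0.05 log2 (adjusted p = 0.86).

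Lyve1, a hyaluronan receptor of lymphatic endothelium and of perivascular macrophages, was barely detected (chr7:110850607-110863239, minus strand). The CTRL libraries had 2, 4 and 6 normalized counts, against 1, 2 and 1 in Act, 5, 4 and 3 in Act+FST and 5, 4 and 5 in FST. These values are too low for a fold change, and CTRL and Act overlapped.

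Among the scavenger receptors, Cd163 takes up complexes of hemoglobin and haptoglobin (chr6:124304656-124330527, plus strand). Replicates 1 to 3 had 252, 229 and 251 normalized counts without treatment (CTRL) and 92, 107 and 62 with activin A. With both proteins they had 244, 219 and 181, and with FST288 alone 248, 242 and 238. The lowest library outside Act, replicate 3 of Act+FST, stood at 181 and thus above the highest Act library at 107. The Act versus CTRL difference of Cd163 was -1.51 log2 (SE 0.16, 95% interval -1.86 to -1.16, adjusted p = 4.1e-05), from 244 ± 13 to 87 ± 22.9 (SD, n = 3). Against Act+FST the difference was -1.32 (SE 0.16, adjusted p = 1.2e-04).

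Marco, a scavenger receptor that binds bacteria and particles, went the other way (chr1:120474538-120505024, minus strand). In CTRL the 3 libraries stood at 87, 90 and 86 normalized counts. Those of Act stood at 131, 168 and 200, those of Act+FST at 116, 145 and 172, and those of FST at 74, 86 and 77. The 6 libraries with activin A were the 6 highest, whether or not FST288 was present, and in both of these groups replicate 1 was the lowest and replicate 3 the highest. Marco rose by 0.90 log2 in Act versus CTRL (SE 0.16, adjusted p = 0.0017), from 87.7 ± 2.08 to 166 ± 34.5 (SD, n = 3), which is 1.86-fold and short of the DEG threshold. Without replicate 1 of Act the difference was 1.06, past that threshold (adjusted p = 7.8e-04). Act and Act+FST overlapped, with a difference of 0.20 (95% interval -0.15 to 0.55, adjusted p = 0.43, or 0.23 with the replicate block), and within the replicate pairs Act was higher by 0.17, 0.21 and 0.22 log2.

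Msr1, the class A scavenger receptor for modified lipoproteins, showed no detectable difference (chr8:39581685-39642673, minus strand). Its normalized counts ranged from 1023 to 1238 in CTRL and from 1097 to 1249 in Act, with 1102 to 1150 in Act+FST and 1074 to 1229 in FST. The Act versus CTRL difference was 0.05 log2 (SE 0.07, 95% interval -0.10 to 0.21, adjusted p = 0.67), so that the interval reaches at most 1.16-fold. The 3 scavenger receptors of the set were thus lower (Cd163), higher (Marco) and without a passing difference (Msr1) in the same libraries.

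Among the genes of the interleukin-4 response itself, Il4ra encodes a chain shared by the receptors for interleukin-4 and interleukin-13 (chr7:125552120-125579474, plus strand). The CTRL libraries had 1654, 1582 and 1621 normalized counts, against 1713, 1726 and 1633 in Act, 1671, 1729 and 1582 in Act+FST and 1650, 1642 and 1557 in FST. The groups overlapped, and the Act versus CTRL difference was 0.06 log2 (SE 0.04, 95% interval -0.03 to 0.16, adjusted p = 0.38). Gm44876 on the opposite strand overlaps 9.51% of its exonic bases and is not listed in the table.

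Arg1, which splits arginine into ornithine and urea and is the classical enzyme of alternatively activated mouse macrophages, was close to the detection floor (chr10:24915221-24927484, minus strand). Replicates 1 to 3 had 18, 12 and 5 normalized counts without treatment (CTRL) and 7, 7 and 6 with activin A. With both proteins they had 36, 3 and 1, and with FST288 alone 23, 6 and 0. Replicate 1 was the highest library of CTRL, Act+FST and FST. The Act versus CTRL difference of -0.58 log2 had a 95% interval from -2.99 to 1.84 (SE 1.11, adjusted p = 0.78), so that a difference in Arg1 was not detectable at this level. The collagen genes Col1a1 and Col1a2, chosen after their values were seen, were highest in replicate 1 of each group. They had 22 to 83 and 24 to 109 normalized counts there and at most 9 elsewhere. Both were highest in replicate 1 of Act, at 83 and 109, where Arg1 had 7. Other stromal and endothelial markers did not all share this pattern. In CTRL, replicates 1 to 3 had 22, 31 and 22 for Pdgfrb and 4, 7 and 7 for Prox1. Any link of the collagen genes to the Arg1 values was not tested.

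To determine how far FST288 changed the response to activin A, the Act versus CTRL difference was set against the Act+FST versus FST difference, which share no library. Mrc1, Clec10a, Folr2 and Cd163 passed in the comparison without FST288 and not in that with it, and the difference between both comparisons was tested for each. With FST288, the differences of these 4 genes lay between -0.19 and -0.01 log2, with 95% intervals of -0.54 to 0.16 for Cd163, -0.56 to 0.18 for Folr2, -0.28 to 0.20 for Clec10a and -0.15 to 0.12 for Mrc1. The interaction, meaning the difference without FST288 minus that with FST288, was -1.32 for Cd163 (SE 0.23, adjusted p = 0.0043), -1.24 for Folr2 (SE 0.24, adjusted p = 0.0082), -0.73 for Clec10a (SE 0.16, adjusted p = 0.016) and -0.49 for Mrc1 (SE 0.09, adjusted p = 0.0051). Thus 4 of the 8 members tested passed, all with a negative sign, and 6.74% of all genes passed (2.75% with a negative sign). As the members were chosen with earlier results known, this does not test them as a set. The Clec10a interaction had an adjusted p of 0.051 when the variance was fitted without a trend on the mean.

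**Figure D3:**
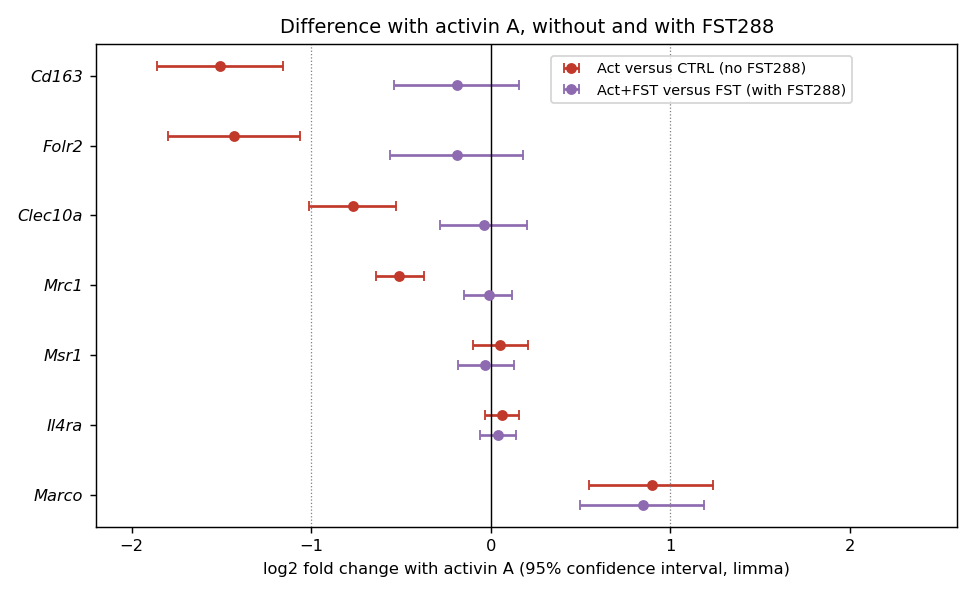
Log2 fold changes with activin A for 7 members, without FST288 (Act versus CTRL, red) and with FST288 (Act+FST versus FST, purple), with 95% confidence intervals from limma and dotted lines at a 2-fold change. The purple intervals of Cd163, Folr2, Clec10a and Mrc1 include 0, and both intervals of Marco lie above 0 (0.55 to 1.24 and 0.50 to 1.19). Arg1 is left out because its interval is wider than the axis.

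Marco differed from the 4 receptors that fell. It was 0.85 log2 higher in Act+FST than in FST (SE 0.16, 95% interval 0.50 to 1.19) and 0.69 higher in Act+FST than in CTRL (SE 0.16, 95% interval 0.35 to 1.04) beside 0.90 in Act versus CTRL. The unadjusted p-values were 1.7e-04 and 8.8e-04 (3.51% and 4.57% of all genes were under 0.05), and neither passed the adjustment over all genes (adjusted p = 0.49 and 0.57, with 0% of all genes passing). With the replicate number as a block, both passed (adjusted p = 0.013 and 0.031), as did 0.217% and 0.559% of all genes, respectively. Ordered by p-value without the block, Marco stood at rank 5 of 14318 genes in Act+FST versus FST and at rank 19 in Act+FST versus CTRL. With the block its ranks were 8 and 24. Its interaction was 0.05 (95% interval -0.44 to 0.54, adjusted p = 0.94), with bounds that correspond to 0.737-fold and 1.45-fold.

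Without the replicate block, no member passed in the comparisons between groups without Act libraries, and with it only Marco did. By limma, 0 of 8 members passed in Act+FST versus CTRL (0% of all genes; 1 member, Marco, at an unadjusted p under 0.05, against the 4.57% above) and 0 of 8 in FST versus CTRL (0% of all genes; 0 members at an unadjusted p under 0.05, against 2.09%). In Act versus Act+FST, which shares the Act libraries with Act versus CTRL, the 4 members that fell passed and no other did, against 21.3% of all genes (10.2% lower). FST alone differed from CTRL by -0.15 log2 for Marco (95% interval -0.50 to 0.20), and for Mrc1, Clec10a, Folr2 and Cd163 by between -0.01 and 0.05.

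Genes of the wider pathways are described next by role, in lists chosen with earlier results of these data known. In Act versus CTRL, 10.3% of all genes tested passed higher and 9.97% lower. Of 14 tested genes of interleukin-4 signaling (ligands, receptor chains, kinases, STAT6 and feedback regulators), 5 rose, 0 fell and 9 did not pass in Act versus CTRL, with a median of 0.07 log2 beside 0.00 over all genes. The largest rises were those of Socs3, a feedback inhibitor of cytokine receptors, from 115 ± 16 to 257 ± 22 normalized counts (1.15 log2, SE 0.16, adjusted p = 3.4e-04), and of Il13ra1, which pairs with IL4Ra to bind interleukin-13, from 373 ± 22.2 to 669 ± 13 (0.84, SE 0.08, adjusted p = 2.3e-05). Stat6 had 1670 ± 38.7 in CTRL and 1631 ± 44.8 in Act (-0.03, adjusted p = 0.61). Il13ra1 had an interaction of 0.64 (adjusted p = 0.0067), and that of Socs3 was 0.77 (adjusted p = 0.07, or 0.0093 with the replicate block).

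Of 17 other tested genes that are known to be induced in alternatively activated mouse macrophages, 7 rose, 5 fell and 5 did not pass, with a median of -0.07 log2. Leaving out replicate 3 of Act, 7 genes passed in place of 12. The largest falls were those of Irf4 and Klf4, transcription factors that act with STAT6, which went from 403 ± 34.3 to 139 ± 13.9 normalized counts (-1.53, SE 0.14, adjusted p = 1.4e-05) and from 159 ± 6.03 to 67.3 ± 3.21 (-1.22, SE 0.10, adjusted p = 6.9e-06). Among genes whose mean reached 50, the largest rises were those of Slc7a2, a cationic amino acid transporter, from 73.7 ± 14.2 to 178 ± 22.5 (1.27, SE 0.17, adjusted p = 2.0e-04), and of Socs2, a feedback regulator of cytokine signaling, from 74.3 ± 10.7 to 149 ± 11 (1.00, SE 0.20, adjusted p = 0.0038). Chil3, the secreted protein Ym1, had 276 ± 44.3 in CTRL and 270 ± 79.8 in Act (-0.07, SE 0.23, adjusted p = 0.88). The interactions of Irf4 (-1.34, adjusted p = 0.002), Klf4 (-0.97, adjusted p = 0.0019) and Slc7a2 (1.10, adjusted p = 0.016) passed, and that of Socs2 did not (0.77, adjusted p = 0.14, or 0.031 with the block). Flt1, a receptor for vascular endothelial growth factor with a mean under 50, rose by 2.46 log2 (adjusted p = 0.0063).

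Of 8 tested genes of arginine handling, Arg2, Ass1 and Slc7a2 rose, 0 fell and 5 did not pass, with a median of -0.06 log2. Slc7a2 was also counted among the genes of alternative activation above. With the replicate block 3 rose and 2 fell. With that block, 31.5% of all genes passed in Act versus CTRL. Arg2, the mitochondrial arginase, went from 23.7 ± 9.29 normalized counts in CTRL to 162 ± 13.6 in Act (2.80 log2, SE 0.28, adjusted p = 2.1e-05), with 19.3 ± 4.51 in Act+FST. Ass1, which makes the precursor of arginine from citrulline and aspartate, went from 36.3 ± 5.03 to 150 ± 31.5 (2.01, SE 0.34, adjusted p = 0.0012). The interaction of Arg2 was 2.96 (adjusted p = 9.7e-04), and that of Ass1 was 1.60 (adjusted p = 0.069, or 0.0033 with the block). Nos2, the inducible nitric oxide synthase that competes for arginine in classically activated macrophages, had 0 to 3 normalized counts in every library and was not tested.

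Of 20 other tested markers of resident macrophages, 3 rose, 8 fell and 9 did not pass, with a median of -0.13 log2. Among genes whose mean reached 50, the largest falls were those of Fcna, a secreted ficolin that recognizes microbial sugars, from 265 ± 26 to 88.7 ± 15.6 normalized counts (-1.58, SE 0.13, adjusted p = 6.7e-06), and of Cd36, a receptor for fatty acids and oxidized lipoproteins, which fell by 1.00 on the log2 scale from 1521 ± 179 to 760 ± 78.5 (SE 0.09, adjusted p = 8.1e-06). Ccl8, a chemokine with a mean under 50, fell by 2.06 on the log2 scale (21.7 ± 12.2 to 4 ± 1, adjusted p = 0.0022). The largest rise was that of Cx3cr1, the fractalkine receptor, from 262 ± 217 in CTRL to 2157 ± 44 in Act (3.41, SE 0.59, adjusted p = 0.0014), with 80 to 502 normalized counts across CTRL libraries and 2123 to 2207 across Act. The resident markers thus held genes with large differences in both directions. The interactions of Fcna (-1.46, adjusted p = 7.9e-04) and Cd36 (-0.80, adjusted p = 0.0021) passed, and that of Cx3cr1 did not (2.21, adjusted p = 0.15, or 0.017 with the block).

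Of 22 other tested scavenger and lectin receptors, 5 rose, 5 fell and 12 did not pass, with a median of -0.13 log2, and with the replicate block 6 rose and 10 fell. Of the genes that fell, Cd36 and Cd5l were also counted among the resident markers. Cd5l, a secreted scavenger receptor cysteine-rich protein of macrophages, went from 1089 ± 76.3 to 608 ± 61.6 normalized counts (-0.84, SE 0.08, adjusted p = 1.4e-05). Clec4e (Mincle) and Clec4n (Dectin-2), lectins for microbial glycolipids and mannans, rose by 0.94 (SE 0.10, adjusted p = 5.5e-05) and 0.45 log2 (SE 0.07, adjusted p = 8.2e-04).

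**Figure D4:**
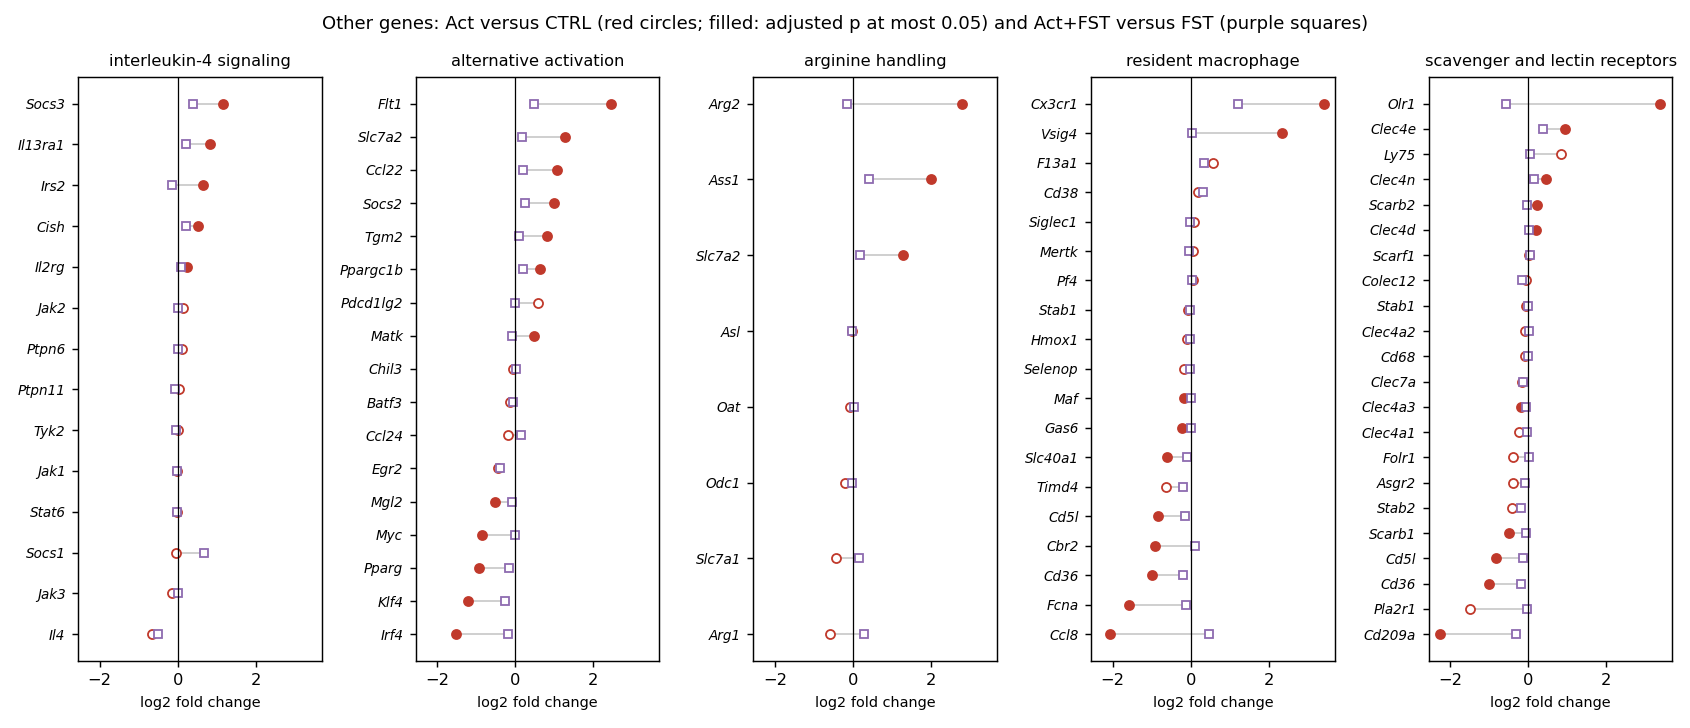
Log2 fold changes of the reported genes in 5 lists, with red circles for Act versus CTRL (filled where the adjusted p is at most 0.05) and purple squares for Act+FST versus FST, joined by a line for each gene. Most filled circles lie farther from 0 than the square of the same gene, as for Arg2 (2.80 and -0.15) and Fcna (-1.58 and -0.12). Circles were filled for passing in Act versus CTRL, which favors values far from 0, so this is not a result about FST288.

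Markers of other cell types that a bone marrow culture could hold were also counted. Sums take in all listed markers of a type, tested or not. Of 10 markers of neutrophils and their progenitors, 0 rose, and Mpo and Elane fell in Act versus CTRL (3 fell with the replicate block), Mpo from 98.7 ± 56.4 to 24 ± 15.6 normalized counts (-2.01 log2, SE 0.47, adjusted p = 0.0092). Leaving out 1 library left 1 to 2 passing. Their summed normalized counts overlapped, with 1294 to 1733 in CTRL and 1017 to 1591 in Act. Of 4 tested lymphocyte markers, only Cd4 passed (-0.57 log2). The sum of the 6 listed ones was 724 to 801 in CTRL and 475 to 608 in Act, of which Cd4 made up most. The T cell marker Cd3d was at 0 in all 3 CTRL libraries and at 3, 1 and 0 in Act. Of 6 tested dendritic cell markers, only Cd209a passed (lower; 3 of 6 passed with the replicate block), with sums of 98 to 209 in CTRL and 123 to 217 in Act. Of mast cell, basophil and eosinophil markers, 1 was tested, Prg2, which fell, with sums of 25 to 60 in CTRL and 10 to 26 in Act. Of 8 tested stromal and endothelial markers, 0 passed by limma (4 with the replicate block), with sums of 254 to 395 in CTRL and 268 to 532 in Act. The part of these cells in the receptor differences was not tested.

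Genes with the pattern most like each member over the 12 libraries were found by the root mean square difference of log2 values centered on each gene's mean, among 10634 genes with a mean of at least 50. For Mrc1 they were Itsn1 (0.035), Anpep (0.0421) and Tecpr1 (0.0499), and for Cd163 they were Mmp27 (0.138), Tfrc (0.143) and Bank1 (0.149). For Clec10a they were Ifitm1 (0.0956), Itgb3bp (0.11) and H1f2 (0.115), and for Folr2 Gm12708 (0.14), Pcyt1b (0.148) and Qpct (0.156). The nearest genes to Marco were farther away, namely Cst7 (0.227), Pdia5 (0.242) and Gm42847 (0.256), against a root mean square deviation of 0.478 for Marco itself. Cst7 had mean normalized counts of 63.3 in CTRL and 117 in Act, and of 95.7 in Act+FST and 66.7 in FST. For Il4ra and Msr1, which varied little (0.0476 and 0.0854), the nearest genes were 3110082I17Rik, Rnf20 and Szrd1, and Clic4, Mgat2 and Uggt1, respectively.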

How the data were processed

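The authors used Trimmomatic 0.39 on the single-end reads, aligned to mm10 with STAR 2.7.9a, counted reads per gene with featureCounts 2.0.2, and used DESeq2 1.30.0 for their own comparisons. Libraries were made with a stranded mRNA kit. The strand setting of the counting and the formula of the scaling are not given in the sources used here. The deposited table holds a signal at or above 0 for each gene. Its values are whole numbers named as normalized. Because they are normalized, no count model was used. Whole reads were not recovered, and totals do not show depth.

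The test was limma 3.58.1 (R 4.3.3) on log2(normalized count + 1), with the prior variance fitted as a trend on the mean. The model held all 12 libraries and 4 group means, and 14318 genes whose mean reached 5 were tested. Adjusted p-values are from limma, two-sided, over all genes tested. DEGs also differed at least 2-fold, with an adjusted p of 0.05 or less. Counting error enters the spread between libraries and weighs most on Arg1 and Lyve1. An exact permutation test of 3 against 3 libraries cannot go below p = 0.1 and is not used.

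The members and lists were chosen with earlier results of these data known. From each list other than the members, the genes named are at most the 2 largest rises and the 2 largest falls in Act versus CTRL with a mean of at least 50 that passed, and Chil3, Mgl2, Pmepa1, Nos2 and Stat6 are named whatever they did. Genes named as the whole of a small count, and Flt1, Ccl8, Gm10602, Gm44876, Csf1r, Cd3d, Col1a1, Col1a2, Pdgfrb and Prox1, are named besides. A gene of the resident marker list is counted but not reported here.

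Libraries of different groups share the replicate numbers 1 to 3 of the labels. Deviations from the group means correlated at 0.312 on average in the 18 pairs with the same number (lowest 0.157) and at -0.155 in the 36 other pairs. Deviations within a group sum to 0, so the second value largely follows from the first. From the correlation at the same number, the numbers were taken to pair the libraries. The main fit held no block, so its adjusted p-values leave this pairing out. The replicate number as a block was an alternative. Other alternatives were pseudocounts of 0.5 and 5, no filter or a mean of at least 50, recomputed median-of-ratios factors, quantile normalization, a fold threshold of 1.5, no trend, only the libraries compared, and each library left out. Reading values as distinct start positions was added after seeing the data. Coordinates and exonic lengths come from GENCODE on GRCm38, which held 18359 of the 18376 gene identifiers.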

Additional observations from a re-analysis of the deposited data

Results flagged for a closer look

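The response to activin A differed between cells without and with FST288 for 4 members, by the test of the interaction in limma. The Act versus CTRL difference minus the Act+FST versus FST difference was -0.49 log2 for Mrc1, -0.73 for Clec10a, -1.24 for Folr2 and -1.32 for Cd163. In each of these genes the 3 Act libraries were the lowest 3 of the 12. The adjusted p-values were 0.0051, 0.016, 0.0082 and 0.0043, respectively.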

How the results depend on the processing

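The calls of Mrc1, Clec10a, Folr2, Cd163 and Marco in Act versus CTRL kept their direction and their side of the threshold under every alternative run, as did those of the first 4 in Act versus Act+FST, and so did the interactions except that of Clec10a without a trend on the mean (-0.73, adjusted p = 0.051). At a fold threshold of 1.5, 4 members were DEGs in Act versus CTRL in place of 2, and the share of all genes at that threshold was not counted. At the 2-fold threshold, leaving out 1 library gave 2 to 3 (3 without Act replicate 1, where Marco passed 2-fold). With the replicate block, and with the block on values read as start positions, 1 member (Marco) passed in Act+FST versus CTRL and in Act+FST versus FST, where 0 did without it; the block changed no other call of a member. Of the lists in Act versus CTRL, the block gave 5 in place of 3 passing genes of arginine handling, 16 in place of 10 scavenger and lectin receptors, 3 in place of 1 dendritic cell markers, and 4 in place of 0 stromal and endothelial markers. Counts of 2 or fewer also moved by 1: macrophage markers 2 with quantile normalization and 0 without a trend in place of 1, neutrophil markers 3 with the block and 1 in place of 2 at a mean of at least 50 or without a trend, the tested mast cell and eosinophil marker 0 in place of 1 with no filter, a mean of at least 50 or no trend, dendritic cell markers 0 at a mean of at least 50, and stromal markers 1 with a pseudocount of 5, quantile normalization or only the libraries compared. Leaving out 1 library gave 7 to 12 passing genes of alternative activation (12 with all libraries, 7 without Act replicate 3), 7 to 12 scavenger and lectin receptors, 0 to 1 macrophage markers, 1 to 2 neutrophil markers, 0 to 1 mast cell and eosinophil markers, 1 to 2 dendritic cell markers and 0 to 1 stromal markers.

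The other changes of sign were in differences that did not pass. Quantile normalization gave -0.02 for Il4ra in Act versus Act+FST, -0.03 for its interaction and 0.03 for Mrc1 in Act+FST versus FST, and a pseudocount of 5 gave -0.10 for Arg1 in Act versus Act+FST. Leaving out 1 library, differences ranged for Il4ra from -0.01 to 0.06 (Act versus Act+FST), -0.02 to 0.02 (FST versus CTRL) and -0.01 to 0.05 (interaction). Those of Arg1 ranged from -0.67 to 1.44 (Act versus Act+FST), -2.01 to 0.09 (Act+FST versus CTRL), -2.11 to 0.19 (FST versus CTRL), -0.96 to 1.33 (Act+FST versus FST) and -1.91 to 0.39 (interaction). In Act+FST versus CTRL the ranges were -0.01 to 0.08 for Mrc1, -0.16 to 0.04 for Clec10a and -0.04 to 0.10 for Msr1. In Act+FST versus FST they were -0.04 to 0.02 for Mrc1, -0.17 to 0.07 for Clec10a and -0.07 to 0.03 for Msr1. In FST versus CTRL they were -0.10 to 0.08 for Clec10a, -0.12 to 0.15 for Folr2, -0.01 to 0.12 for Msr1 and -0.05 to 0.02 for Cd163. They were -0.02 to 0.07 for Msr1 in Act versus Act+FST and -0.10 to 0.21 for the interaction of Marco. The cause of these changes was not tested, and low values limit Arg1.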

Other observations

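Some genes of the lists that the naming rule passes over, chosen after their values were seen, are given here as values. Tgm2, a transglutaminase used as a marker of alternative activation, had 1010 ± 60.4 normalized counts in CTRL, 1774 ± 29.7 in Act and 1006 ± 21.7 in Act+FST (SD, n = 3), with an Act versus CTRL difference of 0.81 log2 (adjusted p = 3.4e-06) and an interaction of 0.71 (adjusted p = 6.7e-04). Pparg, a nuclear receptor for fatty acids, had 420 ± 16.8 in CTRL, 223 ± 44.4 in Act and 396 ± 17 in Act+FST (-0.93 log2, adjusted p = 1.4e-04). Slc40a1, the iron exporter ferroportin, had 2402 ± 100 in CTRL, 1567 ± 38.6 in Act and 2295 ± 140 in Act+FST (-0.62 log2, adjusted p = 1.4e-05). Olr1, a receptor for oxidized lipoproteins, had 7 ± 3.61 in CTRL, 77.7 ± 21.8 in Act and 5.67 ± 2.08 in Act+FST (3.38 log2, adjusted p = 6.6e-05). Vsig4, a complement receptor of resident macrophages, was low in every group, with 8.33 ± 8.08 in CTRL and 33 ± 7.21 in Act (2.34 log2, adjusted p = 0.025), and its interaction of 2.33 did not pass (adjusted p = 0.18, or 0.023 with the replicate block). The transcription factor Maf had 2977 ± 134 in CTRL and 2647 ± 108 in Act (-0.17 log2, adjusted p = 0.042).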
